A study of Mus musculus with 12 samples.

Results

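The 47 genes described here encode the degradative enzymes, the membrane proteins and the proton pump of the lysosome. They comprised 23 hydrolases, 9 membrane proteins, 3 soluble proteins without hydrolase activity, and 12 subunits or accessory proteins of the vacuolar proton ATPase (V-ATPase). They were taken by symbol from a deposited table of 24824 genes, and all 47 symbols were found. The list was drawn up with earlier results of these data known: *Gpnmb* and *Cd68*, which head it, had been among the genes with the largest falls in group D vs. A. Group D vs. A is therefore given for the members as a description, without a test.

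RNA sequencing was performed on AML12 cells, a line of immortalized mouse hepatocytes that is labelled wild type in every group. Group A stood in standard growth medium. Group B received CuCl2 at 300 μM with the copper ionophore elesclomol (ES) at 40 nM, a combination written Cu/ES. Group C received the same Cu/ES plus the bile acid taurocholic acid (TCA) at 1000 μM, and group D received TCA at 1000 μM without Cu/ES. Each treatment lasted 24 h and each group had 3 libraries of polyadenylated RNA. No source states that the libraries of a group came from separate cultures, so the p-values measure the spread between these libraries, which may be technical. Recovered totals ran from 29112016 to 34908553 reads in groups B and C and from 38290273 to 39772245 in groups A and D. Of 12 hepatocyte markers, 9 were in the table. In group A, *Alb*, *Apob*, *Hnf4a* and *Fgb* were at 0 in all 3 libraries, while the keratins *Krt8* and *Krt18* averaged 218 and 181 as scaled FPKM, so the labelled cell type was not borne out by its defining liver markers.

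Lysosomes digest proteins, glycans and lipids with hydrolases that work at acid pH. The acid comes from V-ATPase, whose cytosolic V1 sector splits ATP and turns the membrane sector V0 to carry protons inward. Most soluble hydrolases reach the lysosome with a mannose phosphate tag, and many lysosomal genes carry the CLEAR motif, a binding site for the MiT/TFE transcription factors built around the letters CACGTG. In hepatocytes lysosomes take part in autophagy and in the discharge of copper into bile.

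Promoters of the members were searched for this motif, since the CLEAR element links many of them to a common set of transcription factors. RefSeq promoters of build GRCm38.p6, running from 250 bases before to 50 bases after the start, were matched for 40 of the 47 genes, with 46 promoters in all. The expression files used GRCm39, so these coordinates are not those of the files. The longer form, with GT before the core and AC after it, was found in 0 of the 46 promoters and in 0.326% of all 32851 promoters. The core CACGTG was found in 14 of the 46 (30.4%), against 7.15% of all promoters. Both motifs read alike on either strand, and every long form contains the core. By gene, the core was held by 9 of 20 matched hydrolases, 2 of 8 membrane proteins, 3 of 9 V-ATPase genes and 0 of 3 soluble proteins. A match is a run of letters and not a measured binding site. The 6 promoters that come first by number of matches and then by name are shown from 250 bases before to 20 bases after the start, with the core in capitals:
Lamp1, chr8:13158911-13159180, plus strand, cores beginning at -61, -45, -28 and -15: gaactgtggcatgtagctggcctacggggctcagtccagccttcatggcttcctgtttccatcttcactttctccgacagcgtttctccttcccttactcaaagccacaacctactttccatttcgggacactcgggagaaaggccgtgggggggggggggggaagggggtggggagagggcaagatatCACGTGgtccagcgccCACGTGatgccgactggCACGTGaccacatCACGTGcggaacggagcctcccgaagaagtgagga
Ctsa, chr2:164833523-164833792, plus strand, cores at -12 and 6: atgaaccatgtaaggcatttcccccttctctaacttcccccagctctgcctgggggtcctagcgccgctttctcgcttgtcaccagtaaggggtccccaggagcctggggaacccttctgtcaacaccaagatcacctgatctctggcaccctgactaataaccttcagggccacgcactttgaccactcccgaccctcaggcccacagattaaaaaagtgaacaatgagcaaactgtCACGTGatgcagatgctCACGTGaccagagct
Ctsd, chr7:142387808-142388077, minus strand, cores at -245 and -98: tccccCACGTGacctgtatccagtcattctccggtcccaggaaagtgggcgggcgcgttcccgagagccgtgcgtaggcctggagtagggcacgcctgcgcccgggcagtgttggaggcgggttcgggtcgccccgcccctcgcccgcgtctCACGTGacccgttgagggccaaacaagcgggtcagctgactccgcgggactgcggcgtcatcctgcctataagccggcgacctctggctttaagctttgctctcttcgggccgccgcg
Gla, chrX:134600986-134601255, minus strand, cores at -227 and -194: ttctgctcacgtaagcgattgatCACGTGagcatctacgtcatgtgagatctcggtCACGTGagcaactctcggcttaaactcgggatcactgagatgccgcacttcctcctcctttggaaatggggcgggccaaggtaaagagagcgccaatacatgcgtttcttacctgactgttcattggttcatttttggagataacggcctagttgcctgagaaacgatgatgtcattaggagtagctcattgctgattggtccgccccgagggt
Mcoln1, chr8:3500269-3500538, plus strand, cores at -71 and -45: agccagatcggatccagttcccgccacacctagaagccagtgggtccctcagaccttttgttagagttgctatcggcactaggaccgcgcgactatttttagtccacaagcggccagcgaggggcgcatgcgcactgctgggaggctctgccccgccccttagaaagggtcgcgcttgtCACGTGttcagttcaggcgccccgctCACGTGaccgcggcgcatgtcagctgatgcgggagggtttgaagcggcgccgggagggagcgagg
Atp6v0d1, chr8:105566045-105566314, minus strand, core at -3: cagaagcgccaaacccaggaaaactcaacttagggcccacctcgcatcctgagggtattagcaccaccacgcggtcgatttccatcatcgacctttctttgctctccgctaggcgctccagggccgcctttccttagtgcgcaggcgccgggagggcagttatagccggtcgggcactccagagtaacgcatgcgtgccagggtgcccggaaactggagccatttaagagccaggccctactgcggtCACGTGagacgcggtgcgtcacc
Positions are counted from the start, with the first transcribed base as 1. *Lamp1*, the gene with 4 cores, was also among the most raised membrane proteins below, whereas *Mcoln1*, with 2, did not pass the test in group B vs. A. They are only examples from the 14 genes with a core, and the relation of cores to expression was not tested.

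Expression values are scaled FPKM, the deposited values per gene length and library total divided by a median-ratio factor per library, so that the typical gene has the same level in every library. Fold changes are differences of log2(scaled FPKM + 1), which understates the change of genes near or below 1. They are relative to the typical gene. In bulk RNA, fewer cells that use a gene and less of its RNA per cell cannot be told apart. Of the members, 44 had a mean FPKM of at least 1 and were tested, among 10615 genes in all, by limma with Benjamini-Hochberg adjustment. The lowest group A mean among them was 1.86 scaled FPKM, for *Gusb*, so none passed the filter only through the Cu/ES groups. In the other direction, *Scarb2*, *Ctns*, *Gusb*, *Naglu* and *Smpd1* had mean FPKM below 1 as deposited in groups B and C and passed only through groups A and D. These 5 could be tested only because they were higher there, so their falls are no support for a direction of the list.

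Cu/ES was accompanied by higher transcripts of the proton pump. In group B vs. A, the counts of hydrolases past both thresholds given next were near the shares of all genes in each direction. In group B vs. A, 20 of the 44 members rose and 7 fell past both thresholds, which were an adjusted p under 0.05 and a log2 fold change beyond 1 in either direction. Among all 10615 genes tested the shares were 26.0% higher and 25.6% lower. With the FPKM as deposited, 10 were higher and 14 lower, against 10.1% and 53.0% of all genes. By the adjusted p alone, 30 members were higher and 10 lower, against 42.8% and 45.0% of all genes. Groups B and A did not overlap in 30 higher and 10 lower members, against 43.6% and 45.6%. In group C vs. D, which shares no library with group B vs. A, 26 rose and 7 fell past both thresholds. The shares of all genes were 25.9% and 27.3%, and the deposited FPKM gave 12 and 11, against 11.2% and 53.3%. By the adjusted p alone, 33 members were higher and 9 lower, against 42.0% and 46.8% of all genes. Libraries of groups C and D did not overlap in 33 higher and 9 lower members, against 41.9% and 46.7%. *Gpnmb* and *Cd68* are among the 26, and both were chosen for low values in group D. The median log2 fold change of the 44 members was 0.86 in group B vs. A and 1.35 in group C vs. D, against -0.03 and -0.11 over all genes. Without the 5 members that passed the filter only through groups A and D, 20 rose and 3 fell past both thresholds in group B vs. A, and 26 and 2 in group C vs. D.

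**Figure D1:**
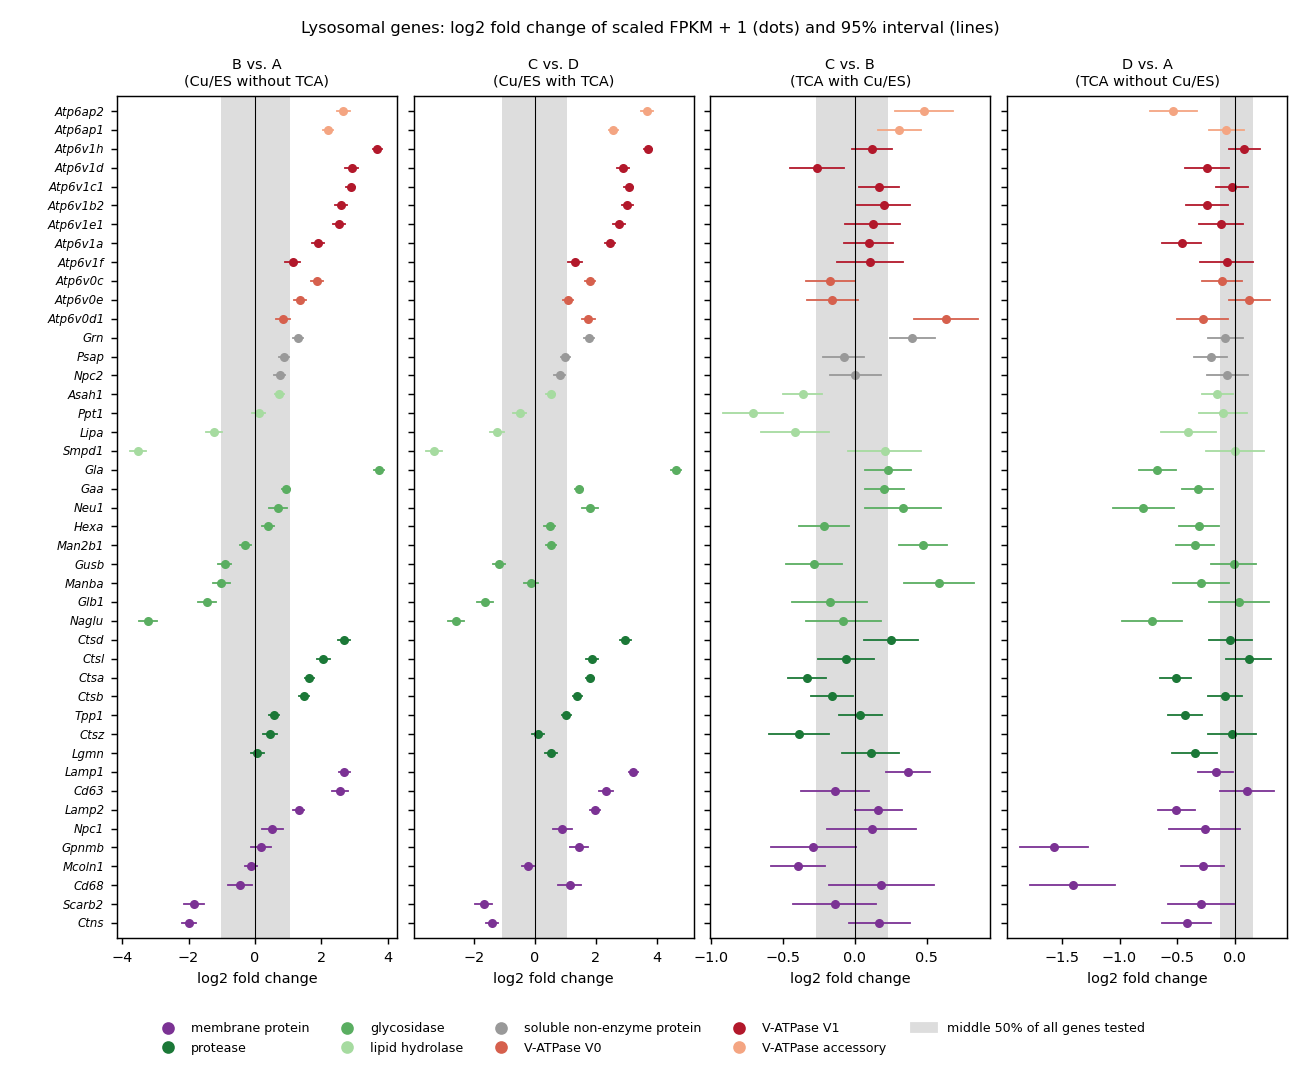
Each row is a member and each dot its log2 fold change of scaled FPKM + 1, with lines for the 95% interval from the fit of all 12 libraries; the colour gives the class, the grey band the middle 50% of all genes tested, and each panel has its own axis. In group B vs. A the values run from -3.52 for *Smpd1* to 3.73 for *Gla*, and all 12 V-ATPase members lie above 0.

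The direction of the smaller changes depended on the scaling. FPKM as deposited placed the median of all genes at -1.10 in group B vs. A and at -1.13 in group C vs. D. The 4 scalings compared were median-ratio factors, FPKM as deposited, quantile normalization and limma-voom on the recovered reads. In group B vs. A, 15 members were higher and 10 lower past the adjusted p under all 4, while 16 took both signs, against 19.0%, 37.4% and 32.5% of all genes. In group C vs. D, 19 were higher and 8 lower under all 4, and 14 took both signs, against 20.05%, 39.2% and 30.1%. The lower counts of both comparisons include *Scarb2*, *Ctns*, *Gusb*, *Naglu* and *Smpd1*. These passed the filter only through groups A and D, so no direction is read from the lower counts.

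**Figure D2:**
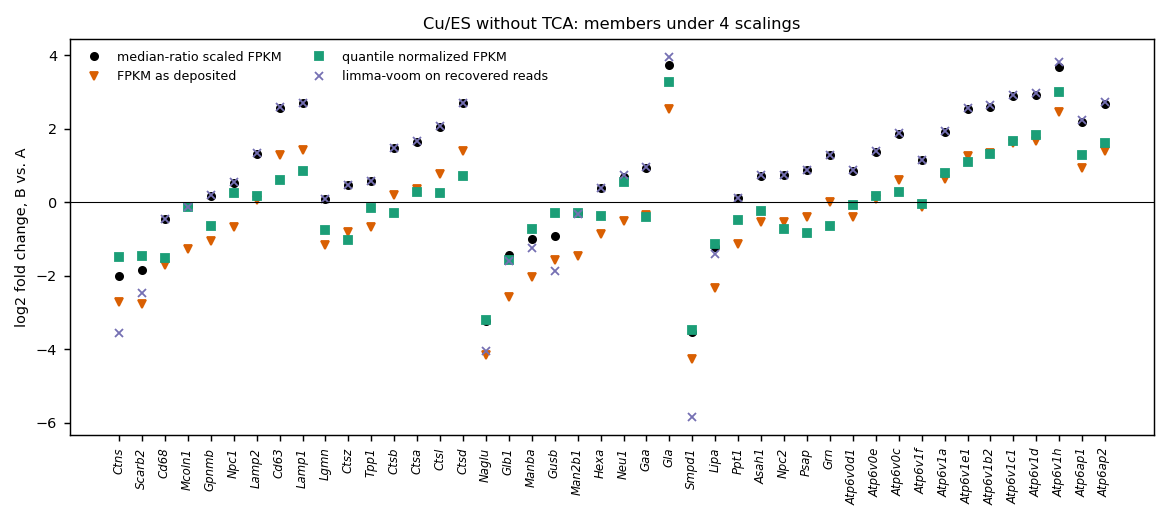
The log2 fold change in group B vs. A (vertical axis) of each tested member (horizontal axis) under 4 scalings of the same data. The V1 subunits, *Gla* and *Smpd1* keep their sign under all 4 except *Atp6v1f*, while the soluble proteins *Psap*, *Npc2* and *Grn* take both signs.

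Of all genes tested, 26.0% rose past both thresholds in group B vs. A and 25.9% in group C vs. D. The V1 subunits among the members rose. All 7 did so past both thresholds in group B vs. A, with log2 fold changes from 1.14 to 3.68 and a median of 2.60, and all 7 did in group C vs. D, from 1.31 to 3.72 with a median of 2.90. The values of *Atp6v1f* alone turned with the scaling, since it stood at -0.13 with FPKM as deposited and -0.06 with quantile normalization in group B vs. A. The most raised of them was *Atp6v1h*, a subunit that regulates the coupling of the sectors. It stood at 9.27, 10.1 and 10.2 scaled FPKM in the libraries of group A, 139, 134 and 140.0 in group B, 149, 153 and 148 in group C and 10.96, 9.76 and 10.8 in group D. Every library with Cu/ES lay far above every library without it. Its log2 fold change was 3.68 (SE 0.06) in group B vs. A (adjusted p = 1.26e-14) and 3.72 (SE 0.06) in group C vs. D (adjusted p = 1.34e-14).

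*Atp6v1d*, a subunit of the central stalk that turns, was 20.7, 21.98 and 23.4 scaled FPKM in group A, 171, 160.2 and 187 in group B, 139, 155 and 138 in group C and 19.1, 16.3 and 20.1 in group D. It rose by 2.92 (SE 0.09) on the log2 scale in group B vs. A and by 2.90 in group C vs. D. *Atp6v1e1*, a subunit of the peripheral stalk and the V1 member with the highest level in group A, was 45.2, 48.6 and 48.4 there, 292, 243 and 303 in group B, 292, 334 and 286 in group C and 46.4, 42.8 and 41.7 in group D. No library with Cu/ES overlapped one without it for either gene. The catalytic subunit *Atp6v1a* rose by 1.90 in group B vs. A, its non-catalytic partner *Atp6v1b2* by 2.60, and *Atp6v1c1*, whose release from the pump accompanies its disassembly, by 2.89. *Atp6v1a* and *Atp6v1b2*, which alternate in the ring that splits ATP, thus differed in size of change, from 31.1 to 119 and from 35.4 to 219 scaled FPKM. The difference between the subunits was not tested.

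Of the membrane sector V0, 3 subunits are members. *Atp6v0c*, the proteolipid of the rotating ring and the one of them with the highest level in group A, was 68.3, 82.0 and 76.0 scaled FPKM in group A, 273, 281 and 279 in group B, 232, 274 and 236 in group C and 68.9, 69.3 and 70.6 in group D. It rose by 1.87 (SE 0.08) in group B vs. A and 1.81 in group C vs. D. *Atp6v0e*, a small hydrophobic subunit, was 37.8, 45.4 and 45.0 in group A, 107, 111 and 117 in group B, 94.6, 108 and 97.3 in group C and 48.5, 43.7 and 47.6 in group D. Its rise of 1.37 (SE 0.08) in group B vs. A kept its sign under every scaling, but that of 1.09 in group C vs. D turned to -0.15 with FPKM as deposited and -0.01 with quantile normalization. *Atp6v0d1*, which joins the ring to the stalk, was the only V-ATPase member short of the fold threshold in group B vs. A, at 0.85 (SE 0.10), with the opposite sign under FPKM as deposited (-0.41) and quantile normalization (-0.08). It rose by 1.76 in group C vs. D.

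Both accessory proteins, which serve the assembly and transport of the pump, rose. *Atp6ap2*, the prorenin receptor, was 23.3, 21.2 and 24.5 scaled FPKM in group A, 160.5, 133 and 162 in group B, 211, 219.7 and 204 in group C and 16.8, 13.7 and 16.3 in group D. The 4 groups did not overlap, in the order C, B, A, D. It rose by 2.67 (SE 0.09) in group B vs. A and by 3.68 in group C vs. D (adjusted p = 5.7e-12 and 2.63e-13). *Atp6ap1* rose by 2.19 and 2.58. Over the 12 V-ATPase members, 11 rose past both thresholds in group B vs. A and 12 in group C vs. D, with medians of 2.36 and 2.67. FPKM as deposited left 6 and 8 of them past both thresholds. Of all genes, 26.0% and 25.9% rose past both thresholds, and 10.1% and 11.2% with FPKM as deposited.

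**Figure D3:**
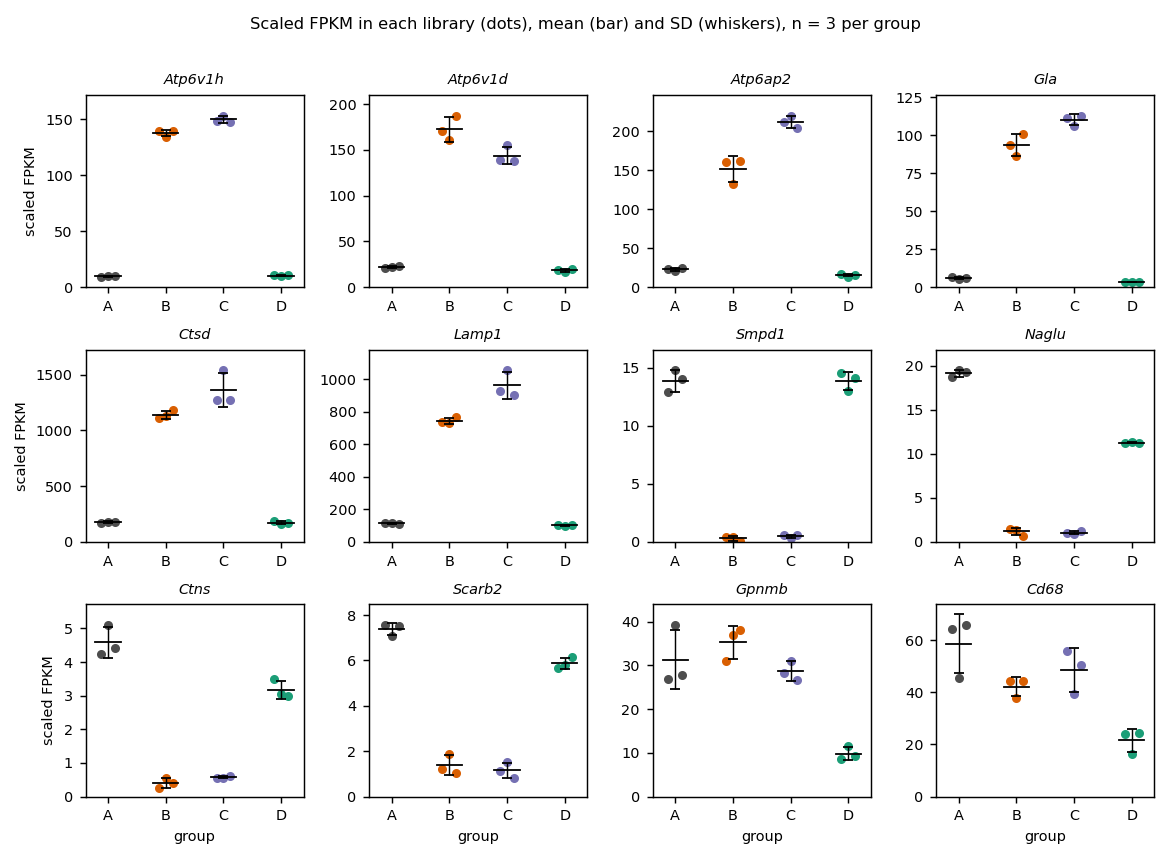
Scaled FPKM on a linear axis from 0 (vertical) in each library of groups A to D (horizontal) for 12 members, with the mean as a bar and the SD as whiskers (n = 3). *Atp6v1h*, *Atp6v1d*, *Atp6ap2*, *Gla*, *Ctsd* and *Lamp1* are high in groups B and C, *Smpd1*, *Naglu*, *Ctns* and *Scarb2* are low there, and *Gpnmb* and *Cd68* are lowest in group D.

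Among the 10 proteases, 7 were expressed highly enough to be tested, and none of these fell past the test. Past both thresholds, 4 rose in group B vs. A and 5 in group C vs. D, against 26.0% and 25.9% of all genes. FPKM as deposited gave 1 higher and 1 lower in each. The shares of all genes as deposited were 10.1% higher and 53.0% lower in group B vs. A, and 11.2% and 53.3% in group C vs. D. *Ctsd*, the aspartic protease cathepsin D, had the highest level of a protease in group A. It stood at 168, 180.4 and 181 scaled FPKM in group A, 1108, 1131 and 1181 in group B, 1270.0, 1538 and 1276 in group C and 184, 162 and 169 in group D. The rise was 2.69 (SE 0.09) in group B vs. A and 2.97 in group C vs. D on the log2 scale (adjusted p = 2.43e-12 and 8.72e-13). *Ctsl*, the cysteine protease cathepsin L, was 126, 129 and 132 in group A, 555, 475 and 598 in group B, 497, 552 and 503 in group C and 152, 129 and 141 in group D. Groups B and C overlapped, and both lay above groups A and D. *Ctsl* rose by 2.06 (SE 0.09) and 1.87 in these comparisons, and *Ctsa*, a carboxypeptidase that also stabilizes the enzymes of *Glb1* and *Neu1*, by 1.64 (SE 0.06) and 1.82.

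The other tested proteases changed sign with the scaling. *Ctsb*, cathepsin B, rose by 1.47 in group B vs. A but stood at -0.29 with quantile normalization. *Tpp1*, which removes tripeptides, rose by 0.56 but stood at -0.68 with FPKM as deposited, and *Ctsz*, a carboxypeptidase, rose by 0.46 but stood at -0.81. *Lgmn*, which cuts after asparagine and processes cathepsins, was 33.8 ± 2.11 scaled FPKM in group A and 35.8 ± 3.42 in group B, a change of 0.07 (SE 0.09) that did not pass (adjusted p = 0.444). In group C vs. D, *Ctsb* rose by 1.39, *Tpp1* by 1.04 and *Lgmn* by 0.53, with -0.20 under quantile normalization and -0.17 and -0.69 under FPKM as deposited, and *Ctsz* did not pass (0.10, adjusted p = 0.342). The 3 proteases below the filter were close to 0. *Ctss*, cathepsin S of antigen-presenting cells, had 0 reads in each library of groups A and D, which allows up to 3 reads by counting error alone. It had 11, 8 and 7 reads in group B and 32, 27 and 16 in group C. *Ctsf* had at most 4 reads in any library, and *Ctsh* was above 0 in the third library of group A alone.

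Of the 20 hydrolases tested, 5 rose and 5 fell past both thresholds in group B vs. A, and 8 rose and 5 fell in group C vs. D. The shares of all genes were 26.0% and 25.6%, and 25.9% and 27.3%. Those that fell include *Naglu* and *Smpd1*, and in group C vs. D *Gusb*, which passed the filter only through groups A and D. FPKM as deposited gave 2 and 9, and 2 and 8, against 10.1% and 53.0%, and 11.2% and 53.3% of all genes. Of the 9 glycosidases, 1 rose and 3 fell past both thresholds in group B vs. A, and 3 rose and 3 fell in group C vs. D. The falls include *Naglu* in both comparisons and *Gusb* in group C vs. D, so no direction is read from these counts. *Gla*, the alpha-galactosidase that is deficient in Fabry disease, had the largest rise of all members. It was 6.43, 5.60 and 6.29 scaled FPKM in group A, 93.6, 86.3 and 101 in group B, 111, 106 and 113 in group C and 3.57, 3.29 and 3.51 in group D. All 4 groups were apart, in the order C, B, A, D. On the log2 scale the rise was 3.73 (SE 0.07) in group B vs. A (adjusted p = 4.69e-14) and 4.64 (SE 0.07) in group C vs. D (adjusted p = 7.14e-15), and it was 2.53 and 3.5 with FPKM as deposited.

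*Naglu*, which removes glucosamine residues from heparan sulfate, moved the other way. It was 18.7, 19.5 and 19.3 scaled FPKM in group A, 1.503, 1.36 and 0.720 in group B, 1.05, 0.873 and 1.24 in group C and 11.3, 11.3 and 11.2 in group D. Groups B and C overlapped at the bottom, and group D lay below group A. Its log2 fold change was -3.22 (SE 0.12) in group B vs. A and -2.58 in group C vs. D. *Naglu* passed the filter only through groups A and D, so no p is given for this fall. *Glb1*, the beta-galactosidase, fell, at -1.45 and -1.65, from 16.6 ± 1.003 scaled FPKM in group A to 5.49 ± 0.993 in group B. *Manba*, the beta-mannosidase, was 6.65, 7.95 and 6.52 in group A, 3.04, 2.45 and 3.51 in group B, 4.39, 5.23 and 5.33 in group C and 5.49, 5.99 and 5.14 in group D. It fell, at -1.01 (SE 0.11), in group B vs. A, while in group C vs. D its change of -0.13 did not pass (adjusted p = 0.285).

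Among the remaining glycosidases, some turned with the scaling. *Gaa*, the glucosidase that degrades glycogen and the most expressed glycosidase of group A, was 60.8, 62.6 and 59.5 scaled FPKM in group A, 125, 109 and 119 in group B, 135, 136 and 136 in group C and 47.8, 48.7 and 49.3 in group D. It rose by 0.93 (SE 0.06) in group B vs. A but stood at -0.34 with FPKM as deposited, whereas its rise of 1.46 in group C vs. D kept its sign. *Neu1*, the sialidase, was 10.2, 7.64 and 10.8 in group A, 16.6, 13.9 and 17.2 in group B, 20.1, 19.9 and 20.7 in group C and 5.15, 4.31 and 5.75 in group D. It rose by 0.68 (SE 0.12) in group B vs. A, with -0.50 under FPKM as deposited, and by 1.81 in group C vs. D under every scaling. *Hexa*, a subunit of beta-hexosaminidase, rose by 0.39 and 0.48 but stood at -0.86 and -0.73 with FPKM as deposited. *Gusb*, the beta-glucuronidase, fell in both comparisons, at -0.92 and -1.19, and passed the filter only through groups A and D. *Man2b1*, the alpha-mannosidase, fell, at -0.30 (SE 0.08), in group B vs. A and rose by 0.52 in group C vs. D, where FPKM as deposited gave -0.62.

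The lipid hydrolases held the largest fall. *Smpd1*, acid sphingomyelinase, which turns sphingomyelin into ceramide, was at 12.9, 14.8 and 14.0 scaled FPKM in group A, beside 14.5, 12.9 and 14.1 in group D. It was 0.420, 0.422 and 0.0631 in group B and 0.566, 0.352 and 0.563 in group C. Groups A and D overlapped and so did groups B and C. The log2 fold change was -3.52 (SE 0.12) in group B vs. A and -3.31 (SE 0.12) in group C vs. D. *Smpd1* passed the filter only through groups A and D, so no p is given for this fall. *Lipa*, the acid lipase that frees cholesterol from its esters, was 10.5, 13.2 and 10.3 in group A, 4.36, 4.72 and 3.69 in group B, 2.83, 2.90 and 3.06 in group C and 8.23, 9.24 and 7.41 in group D, and fell, at -1.23 (SE 0.11) and -1.24. *Asah1*, acid ceramidase, the enzyme after *Smpd1* in this pathway, was 34.0, 34.6 and 34.8 in group A, 56.9, 59.9 and 56.2 in group B, 43.4, 48.3 and 42.4 in group C and 31.6, 30.6 and 30.5 in group D. It rose by 0.73 (SE 0.06) and 0.52, but FPKM as deposited gave -0.53 and -0.71. *Ppt1*, which removes palmitate from proteins, did not pass in group B vs. A (0.11 (SE 0.10), adjusted p = 0.31) and fell, at -0.50, in group C vs. D.

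The 3 soluble proteins without hydrolase activity were abundant. *Grn*, progranulin, was the most expressed member in group A, with 293, 301 and 307 scaled FPKM there, 745, 680.5 and 787 in group B, 980.5, 976 and 959 in group C and 291, 269.9 and 289 in group D. It rose by 1.29 (SE 0.07) in group B vs. A and 1.77 in group C vs. D, but quantile normalization gave -0.64 and -0.11. *Psap*, the precursor of the saposins that present lipids to hydrolases, rose by 0.87 and 1.0, and *Npc2*, which passes cholesterol to *Npc1*, by 0.74 and 0.81, while FPKM as deposited gave -0.41, -0.25, -0.53 and -0.43 in the same order.

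Of the 9 membrane proteins, 3 rose and 2 fell past both thresholds in group B vs. A, and 5 rose and 2 fell in group C vs. D. The shares of all genes were 26.0% and 25.6%, and 25.9% and 27.3%. The 5 include *Gpnmb* and *Cd68*, chosen for low values in group D. The 2 are *Scarb2* and *Ctns*, which passed the filter only through groups A and D, so no direction is read from these counts. FPKM as deposited gave 2 higher and 5 lower, and 2 and 3, against 10.1% and 53.0%, and 11.2% and 53.3% of all genes. *Lamp1*, a main glycoprotein of the lysosomal membrane, had 113, 117 and 111 scaled FPKM in group A, 734, 729 and 764 in group B, 927, 1054 and 902 in group C and 104, 98.9 and 101 in group D. It rose by 2.70 (SE 0.07) and 3.23 (adjusted p = 3.75e-13 and 7.75e-14). *Cd63*, a tetraspanin of late endosomes and the membrane protein with the highest level in group A, was 164, 185 and 175 there, 985, 1041 and 1101 in group B, 855, 1142 and 865 in group C and 207, 176 and 182 in group D. It rose by 2.57 (SE 0.11) and 2.33. For both genes every library with Cu/ES was above every library without it. *Lamp2*, the partner of *Lamp1* and a receptor in autophagy, rose by 1.31 and 1.98.

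The transporters and receptors of the membrane are given singly, and no joint direction is read from them. *Ctns*, which exports cystine, was 4.24, 5.11 and 4.42 scaled FPKM in group A, 0.251, 0.559 and 0.395 in group B, 0.560, 0.544 and 0.607 in group C and 3.49, 3.06 and 2.98 in group D. It fell, at -2.00 (SE 0.10) and -1.41. *Scarb2*, a receptor that carries cargo to the lysosome, was 7.56, 7.09 and 7.53 in group A, 1.23, 1.87 and 1.02 in group B, 1.123, 1.51 and 0.813 in group C and 5.65, 5.81 and 6.14 in group D, and fell, at -1.84 (SE 0.13) and -1.69. For neither gene did groups with and without Cu/ES overlap. *Ctns* and *Scarb2* passed the filter only through groups A and D, so no p is given for their falls. *Npc1*, which exports cholesterol, rose by 0.52 and 0.90, with -0.68 and -0.27 under FPKM as deposited. *Mcoln1*, a calcium channel, was 9.37, 9.16 and 10.6 in group A, 9.28, 9.35 and 8.06 in group B, 6.81, 6.80 and 5.94 in group C and 8.18, 7.79 and 7.46 in group D. Its change of -0.11 (SE 0.09) in group B vs. A did not pass (adjusted p = 0.227), and its fall, at -0.23, in group C vs. D (adjusted p = 0.0221) was lost without the third library of group C, at -0.17, or the first of group D, at -0.20 (adjusted p = 0.0946 and 0.0797).

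**Figure D4:**
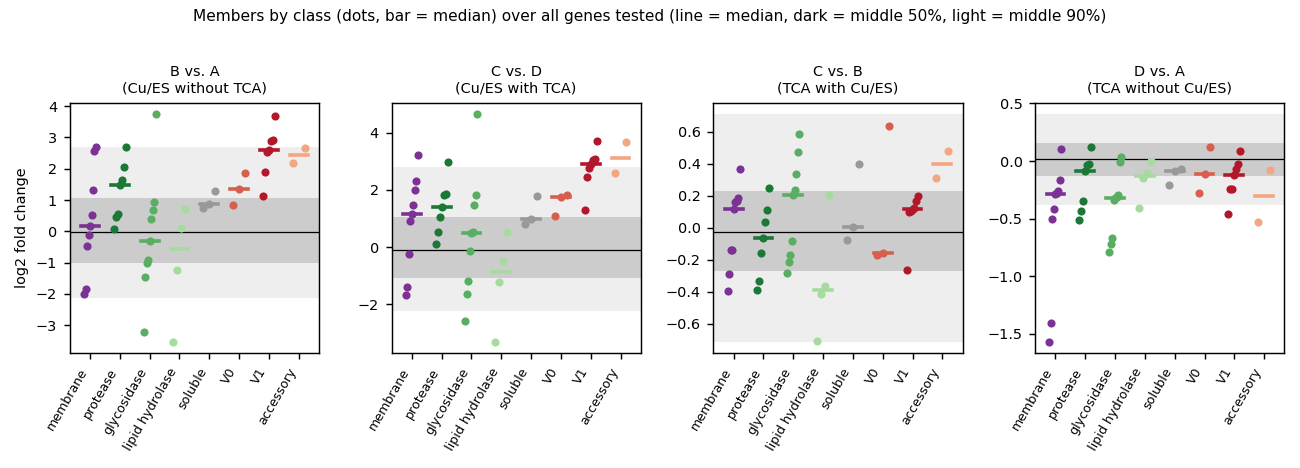
Dots are members grouped by class (horizontal axis), with their log2 fold change (vertical axis, a separate scale in each panel) and the class median as a bar; the line is the median of all genes tested, and the dark and light bands hold their middle 50% and 90%. In group B vs. A the class medians run from -0.56 for lipid hydrolases to 2.60 for V1.

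*Gpnmb* and *Cd68*, glycoproteins of the lysosomal membrane best known from macrophages, were chosen for their values in group D and are described here without a test where groups A or D enter. *Gpnmb* was 27.0, 39.3 and 27.8 scaled FPKM in group A, 31.0, 36.9 and 38.0 in group B, 28.3, 31.1 and 26.8 in group C and 8.66, 11.5 and 9.31 in group D. *Cd68* was 64.3, 45.6 and 65.8 in group A, 44.2, 37.9 and 44.2 in group B, 55.7, 39.2 and 50.4 in group C and 24.0, 16.4 and 24.2 in group D. For both, every library of group D lay below every library of the other groups, which overlapped among themselves except that every *Cd68* library of group B was below every one of group A. The log2 difference in group D vs. A was -1.57 (SE 0.14) for *Gpnmb* and -1.40 (SE 0.17) for *Cd68*, which ranked 10614 and 10613 of 10615 genes from the highest. In group B vs. A the values were 0.18 (SE 0.14) and -0.45 (SE 0.17), and in group C vs. D 1.46 and 1.14, with -1.07, -1.71, 0.28 and -0.08 under FPKM as deposited. In group C vs. B neither passed, at -0.29 (SE 0.14) and 0.19 (SE 0.17) (adjusted p = 0.102 and 0.397).

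Of 15 macrophage markers, 10 were in the table. Their summed scaled FPKM was 3.87 to 4.45 in group A and 4.41 to 5.44 in group D, mostly *Cd14*, but 13.1 to 20.6 in group B, mostly *Fcgr1*, which also led in group C with sums of 8.90 to 18.7. *Adgre1* was at 0 in groups A, B and D, *Aif1* in groups A, B and C, and *Lyz2* in groups B and D. *Csf1r* and *Ptprc* were at 0 in all libraries of group D and close to 0 in group A (0.0140 ± 0.00868 and 0.0112 ± 0.00971 scaled FPKM). The part of such cells in the values of *Gpnmb*, *Cd68* and *Ctss* was not tested. The 6 endothelial markers summed to 0.580 to 0.733 in group A and 10.5 to 16.4 in group B, and the 6 stellate cell or fibroblast markers in the table to 88.5 to 129.6 in group A and 5.37 to 8.95 in group B. Their part in the Cu/ES results was not tested.

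With TCA added to Cu/ES, the counts of members past the thresholds were near the shares of all genes, so nothing is read from them. In group C vs. B, 0 members passed both thresholds in either direction by limma, against 1.5% higher and 1.47% lower among all genes. Limma-voom on the recovered reads counted 0 higher and 1 lower. At an unadjusted p under 0.05, limma counted 14 higher and 11 lower. The share of all genes at this threshold is not given here, so nothing is read from these counts. By the adjusted p alone, 12 were higher and 9 lower, against 22.6% and 24.3% of all genes. The 12 included 4 V-ATPase genes. *Atp6v0d1* had the largest difference, with 52.6, 51.6 and 60.4 scaled FPKM in group B, 88.9, 87.8 and 79.7 in group C, 28.6, 27.7 and 34.0 in group A and 26.6, 21.2 and 26.3 in group D. It rose by 0.63 (SE 0.10) on the log2 scale (adjusted p = 0.000251), and every library of group C was above every library of group B. *Atp6ap2* rose by 0.48 and *Atp6ap1* by 0.31. The rise of 0.17 of *Atp6v1c1* was lost with any of the libraries B1, B2, C1, C2 or C3 left out (adjusted p = 0.0566 to 0.113).

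*Manba* rose by 0.59 (SE 0.11) in group C vs. B and *Man2b1* by 0.47 (SE 0.08), both mannosidases (adjusted p = 0.000883 and 0.000266). *Grn* rose by 0.40 and *Lamp1* by 0.37 (adjusted p = 0.000507 and 0.000802). The rises of *Ctsd* (0.25), *Gla* (0.23), *Gaa* (0.21) and *Neu1* (0.34) were each lost when a library was left out. *Ctsd* was lost without B1, B2 or C2, *Gla* without B2, C1 or C3, *Gaa* without B2, and *Neu1* without B1, B2, C1, C2 or C3.

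The largest fall was that of *Ppt1*, which was 23.3, 25.3 and 22.3 scaled FPKM in group B and 16.0, 14.3 and 12.2 in group C, beside 19.7, 23.4 and 22.7 in group A and 19.1, 21.5 and 20.3 in group D. Its log2 fold change was -0.71 (SE 0.10) (adjusted p = 6.78e-05), and group C lay below the other 3 groups. *Lipa* fell too, at -0.41, a call lost by limma-voom on the recovered reads (adjusted p = 0.0828), as did *Mcoln1* at -0.40, *Ctsz* at -0.39, *Asah1* at -0.36 and *Ctsa* at -0.33. The last of the 4 lipid hydrolases, *Smpd1*, was below 1 scaled FPKM in both groups and did not pass (0.21 (SE 0.12), adjusted p = 0.163). The falls of *Gusb* (-0.28), *Hexa* (-0.21) and *Atp6v1d* (-0.26) were lost without single libraries: *Gusb* without B1 or C3, *Hexa* without B1, B2, C1 or C3, and *Atp6v1d* without B1, B3, C1 or C3. With the replicate number as a block, *Hexa* and *Atp6v1c1* lost the call (adjusted p = 0.0578 and 0.0521), and *Atp6v1b2*, at 0.20, and *Gpnmb* gained it (adjusted p = 0.0263 and 0.0252). Under all 4 scalings, 10 members were higher and 5 lower in group C vs. B past the adjusted p, against 17.9% and 18.7% of all genes, and *Npc2* alone took both signs.

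TCA without Cu/ES went with slightly lower levels of most members, given here without a test. In group D vs. A, 39 of the 44 members had a log2 difference below 0 and 5 above, with a median of -0.24 against 0.02 over all genes. In 26 members every library of group D was below every library of group A, and in 0 was every library above. Among all genes the shares were 19.4% and 24.9%. Since group D vs. A took part in the choice of members, nothing is read from these counts. The sign was below 0 under all 4 scalings in 38 members and above 0 in 4, and *Glb1* and *Gusb* took both signs.

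After *Gpnmb* and *Cd68*, the lowest was *Neu1*, at -0.79 (SE 0.12), from 9.58 ± 1.70 scaled FPKM in group A to 5.07 ± 0.722 in group D. *Naglu* was at -0.72, *Gla* at -0.67, *Atp6ap2* at -0.53, *Ctsa* at -0.51 and *Lamp2* at -0.51. *Naglu* and *Ctsa* varied little within a group, at 11.3 ± 0.0742 and 35.7 ± 0.629 scaled FPKM in group D. The highest differences were 0.12 (SE 0.08) for *Atp6v0e*, 0.12 (SE 0.09) for *Ctsl* and 0.11 (SE 0.11) for *Cd63*, and groups A and D overlapped in all 3. By class, 7 of 9 glycosidases, 7 of 9 membrane proteins and 3 of 7 tested proteases had group D wholly below group A, as had 5 of 12 V-ATPase genes and 2 of 4 lipid hydrolases.

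Comparisons that share no library were set side by side. The Cu/ES values without TCA (group B vs. A) and with it (group C vs. D) had the same sign in 41 of 44 members (93.2%), against 90.4% of all genes. Across the members Pearson's r was 0.96 and Spearman's rho 0.94, over genes that share libraries within each comparison and are no independent replicates. The 3 members with other signs were *Cd68*, *Man2b1* and *Ppt1*. For TCA with Cu/ES (group C vs. B) and without (group D vs. A), 16 of 44 members (36.4%) had the same sign, with r = -0.08 and rho = -0.15. Since group D vs. A took part in the choice of members and 39 of them were below 0 there, nothing is read from this share. In 24 members the value was above 0 in group C vs. B and below 0 in group D vs. A, among them *Atp6v0d1*, *Manba*, *Atp6ap2*, *Man2b1*, *Neu1* and *Gla*.

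**Figure D5:**
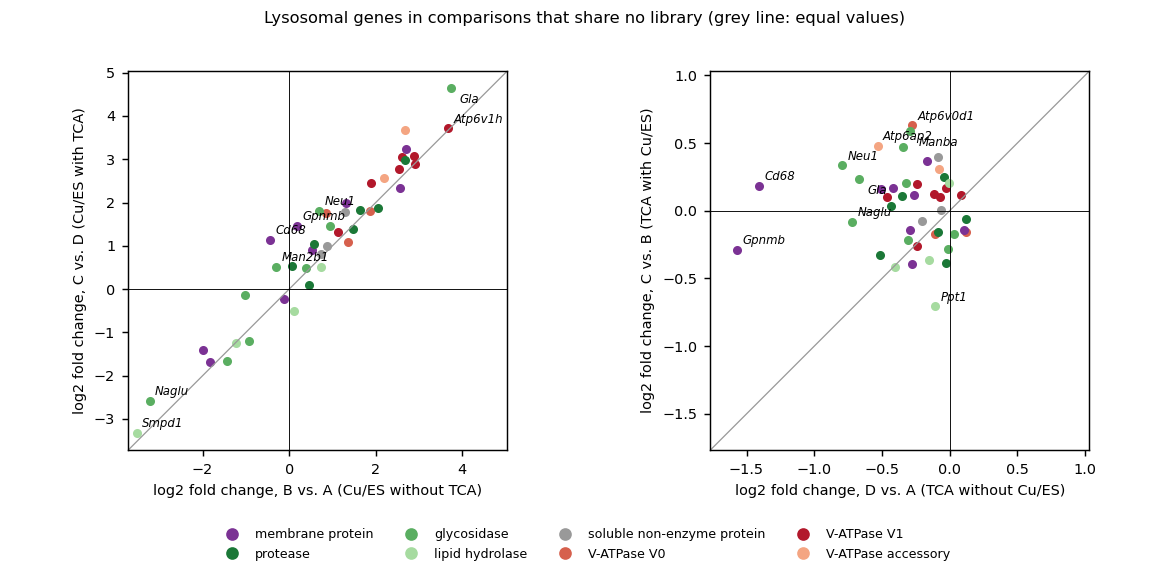
Each dot is a member, coloured by class; the left panel sets its log2 fold change in group C vs. D against that in group B vs. A, and the right panel sets group C vs. B against group D vs. A, with a grey line where both are equal. On the left 41 of 44 members share a sign, and on the right 16 of 44 do.

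In 8 of the 44 members (18.2%), against 7.71% of all genes, the same library number was lowest in every group. In *Cd68*, *Npc1*, *Gla*, *Neu1*, *Atp6v1a* and *Atp6v1b2*, the library numbered 2 was the lowest of its group in all 4 groups. In *Glb1* it was the library numbered 3, and in *Atp6v0c* the library numbered 1. What the numbers stand for is not given in the sources used here.

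Lysosomal genes outside the members were taken from lists that were also written with earlier results known. Of 24 other hydrolases tested, 5 rose and 11 fell past both thresholds in group B vs. A, where FPKM as deposited gave 3 and 17. The shares of all genes were 26.0% and 25.6%, and 10.1% and 53.0% as deposited. *Dpp7*, which removes dipeptides, rose from 4.55 ± 0.627 to 138 ± 6.79 scaled FPKM (4.65 (SE 0.11) on the log2 scale). In group C vs. B, *Arsb* fell, at -1.64, and *Arsa* rose, at 1.11, both sulfatases. Of 14 other membrane proteins, 6 rose and 3 fell, against 1 and 7 with FPKM as deposited, led by *Cln3* (2.81) and *Tmem175*, a proton-leak channel (-2.11). Of 6 other V-ATPase subunits tested, 3 rose and 0 fell past both thresholds, against 1 and 3 with FPKM as deposited, with *Atp6v0b* from 33.8 ± 2.75 to 470.1 ± 28.0 (3.76 (SE 0.10)) and *Atp6v1g2* at 1.51, while *Atp6v1g1* stood at -0.02 (adjusted p = 0.881).

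Genes of the machinery that delivers hydrolases were counted in the same way. Of 5 sorting genes tested, 3 rose and 1 fell past both thresholds in group B vs. A, where FPKM as deposited gave 2 and 2. The shares of all genes were 26.0% and 25.6%, and 10.1% and 53.0% as deposited. *Gnptg*, the gamma subunit of the phosphotransferase that makes the mannose phosphate tag, rose by 2.90 (SE 0.08), and *Gnptab*, the precursor of its other subunits, fell, at -1.81 (SE 0.09), and stood at 0.344 ± 0.0719 scaled FPKM in group B. With its low level in group B, *Gnptab* passed the filter only through other groups, so nothing is read from its direction. *M6pr*, a receptor of the tag, rose by 2.37.

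Among the MiT/TFE factors, *Tfeb* fell from 2.19 ± 0.108 scaled FPKM in group A to 0.188 ± 0.0759 in group B. The log2 fold change was -1.43 (SE 0.10). *Tfeb* stood at 0.202 ± 0.153 in group C and 2.31 ± 0.210 in group D. It passed the filter only through groups A and D, so no p is given for this fall. *Tfe3* rose by 0.54 (SE 0.07) and *Mitf* by 0.32 (SE 0.11) in group B vs. A, while FPKM as deposited gave -0.66 and -0.57. *Tfec* was below the filter, at 0 in groups A, B and D. In group D vs. A, *Tfe3* rose by 0.42 (SE 0.07) (adjusted p = 0.00155), and *Tfeb* (0.05) and *Mitf* (0.15) did not pass (adjusted p = 0.782 and 0.398).

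Of 11 genes for Ragulator, Rag GTPases and folliculin, which report lysosomal nutrients to mTORC1, 4 rose and 2 fell past both thresholds in group B vs. A. FPKM as deposited gave 2 and 4. The shares of all genes were 26.0% and 25.6%, and 10.1% and 53.0% as deposited. *Lamtor3* rose by 2.77 and *Fnip1* by 2.55. In group D vs. A, 0 were higher and 4 lower by the adjusted p, against 10.3% and 6.56% of all genes, led by *Fnip1*, at -0.77 (SE 0.08), and *Rragd*, at -0.58 (SE 0.10) (adjusted p = 0.000154 and 0.00202).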

How the data were processed

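Libraries were prepared from polyadenylated RNA (TRIzol, VAHTS Universal V6) and sequenced on an Illumina NovaSeq. The authors deposited FPKM values for 24824 genes in 12 libraries. The submitters' processing notes name fastp, HISAT2, HTSeq and GRCm39. Versions, annotation, strand setting and the treatment of reads that match several genes are not given in the sources used here, so overlapping and near-identical genes are uncertain. The authors compared groups with DESeq2, which needs counts.

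Each library's FPKM was divided by a median-ratio factor (0.607 to 0.661 in groups B and C, 1.52 to 1.59 in groups A and D), and log2(scaled FPKM + 1) was fitted by group, all 12 libraries together, using limma (3.58.1, R 4.3.3) and a mean-variance trend and 8 residual degrees of freedom. The filter, a mean FPKM of 1 or more, kept 10615 genes. Two-sided p-values were adjusted by Benjamini-Hochberg over all of them. Reads were recovered from the spacing of FPKM: values of 22212 of 22212 genes above 0 in at least 2 libraries came out whole within 0.02. They cover counting error only. On simulated data for group B vs. A, 97% of 200 genes changed 4-fold among 10615 were recovered with 0 false calls. In the real data 26.0% of genes rose and 25.6% fell past both thresholds. With far fewer genes changed, the simulation does not test the error that comes from the scaling.

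Members and lists were chosen with earlier results of these data known. Values in every library are given for *Gpnmb*, *Cd68*, the 3 largest changes in each direction of each comparison and the highest gene of each class in group A. Other pathway genes named are the 2 largest changes of a list in a comparison and all MiT/TFE factors, except that a gene this rule names is not reported here. *Lamp1* in every library was added after its values were seen. Alternatives were FPKM as deposited, quantile normalization, limma-voom on recovered reads, a pseudocount of 0.1, no filter, a mean FPKM of at least 5, no trend, only the groups compared, a replicate block, and each library left out. Tables and plots came from Python 3.11.15 (pandas 2.3.3, numpy 2.4.6, matplotlib 3.10.9).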

Additional observations from a re-analysis of the deposited data

Results flagged for a closer look

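In 10 members TCA went with a higher level in the presence of Cu/ES, every library of group C lying above every library of group B, and with a lower level in its absence, every library of group D lying below every library of group A. Of all genes tested, 3.81% had this pattern. The differences between these log2 fold changes were not tested, and nothing is read from the count, because group D vs. A took part in the choice of members. For *Neu1*, the sialidase, the difference was 1.13. It was 1.01 for *Atp6ap2*, 0.91 for *Atp6v0d1*, 0.90 for *Gla* and 0.88 for *Manba*. It was 0.82 for *Man2b1*, 0.54 for *Lamp1*, 0.53 for *Gaa*, 0.48 for *Grn* and 0.44 for *Atp6v1b2*. The rises of *Neu1*, *Gla* and *Gaa* in group C vs. B were lost when a library was left out, and that of *Atp6v1b2* did not pass the adjusted p.

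In 2 members every library moved one way with Cu/ES in the absence of TCA and the other way in its presence. *Cd68* had log2 fold changes of -0.45 in group B vs. A and 1.14 in group C vs. D, a difference of -1.59, and *Man2b1* had -0.30 and 0.52, a difference of -0.82. Neither difference was tested. That of *Cd68* contains its low level in group D, for which it was chosen, and so largely restates the choice. With FPKM as deposited, the value in group C vs. D was -0.08 for *Cd68* and -0.62 for *Man2b1*. Groups of 3 libraries were not examined for outlying samples.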

How the results depend on the processing

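Scaling mattered most. With FPKM as deposited, the sign of 14 members turned in group B vs. A: -1.07 for *Gpnmb*, -0.68 for *Npc1*, -0.81 for *Ctsz*, -0.68 for *Tpp1*, -1.18 for *Lgmn*, -0.34 for *Gaa*, -0.86 for *Hexa*, -0.50 for *Neu1*, -0.53 for *Asah1*, -1.13 for *Ppt1*, -0.41 for *Psap*, -0.53 for *Npc2*, -0.41 for *Atp6v0d1* and -0.13 for *Atp6v1f*. With FPKM as deposited, the sign of 11 members turned in group C vs. D: -0.0801 for *Cd68*, -0.27 for *Npc1*, -1.15 for *Ctsz*, -0.17 for *Tpp1*, -0.69 for *Lgmn*, -0.73 for *Hexa*, -0.62 for *Man2b1*, -0.71 for *Asah1*, -0.25 for *Psap*, -0.43 for *Npc2* and -0.15 for *Atp6v0e*. With quantile normalization, the sign of 14 members turned in group B vs. A: -0.64 for *Gpnmb*, -0.29 for *Ctsb*, -1.04 for *Ctsz*, -0.16 for *Tpp1*, -0.76 for *Lgmn*, -0.39 for *Gaa*, -0.39 for *Hexa*, -0.25 for *Asah1*, -0.49 for *Ppt1*, -0.84 for *Psap*, -0.73 for *Npc2*, -0.64 for *Grn*, -0.0758 for *Atp6v0d1* and -0.0569 for *Atp6v1f*. With quantile normalization, the sign of 9 members turned in group C vs. D: -0.20 for *Ctsb*, -1.22 for *Ctsz*, -0.15 for *Lgmn*, -0.10 for *Hexa*, -0.27 for *Asah1*, -0.59 for *Psap*, -0.50 for *Npc2*, -0.11 for *Grn* and -0.0086 for *Atp6v0e*. Counts past both thresholds followed. FPKM as deposited gave 10 higher and 14 lower in group B vs. A and 12 and 11 in group C vs. D, in place of 20 and 7 and of 26 and 7. Quantile normalization gave 8 higher in group B vs. A and 14 in group C vs. D. In group B vs. A it put *Cd68*, *Scarb2*, *Ctns*, *Ctsz*, *Glb1*, *Naglu*, *Lipa* and *Smpd1* lower past both thresholds. In group C vs. D those lower were *Scarb2*, *Ctsz*, *Glb1*, *Naglu* and *Smpd1*. Limma-voom on the recovered reads gave 1 lower in group C vs. B in place of 0. Which scaling is nearest to the RNA content of the cells was not tested.

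With a pseudocount of 0.1, no filter, a mean FPKM of at least 5 (which drops 2 members), no trend or only the groups compared, no sign of a call turned, and counts past both thresholds stayed within 1.5 times. With 1 library left out, they were 20 higher and 6 to 7 lower in group B vs. A, 25 to 27 and 7 in group C vs. D, and 0 and 0 in group C vs. B. Without C2, 8 members gained and 3 lost the call in group C vs. B.

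Replicate numbers are shared by the groups. Deviations from the group means correlated with a mean of 0.12 in same-numbered pairs and -0.0565 in the rest. Of 18 same-numbered pairs, 11 exceeded 0.1, and 9 of 12 libraries correlated best with their own number. Some likeness between same-numbered libraries was thus present. The main fit did not pair them, since what the numbers stand for is not given. With the replicate number as a block, counts past both thresholds were again 20 and 7, 26 and 7, and 0 and 0, and in group C vs. B *Gpnmb* and *Atp6v1b2* gained and *Hexa* and *Atp6v1c1* lost the adjusted p.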
